A study of Homo sapiens with 2 samples.

Results

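The nuclear hormone receptor genes described here are 42 genes listed by name, by a rule that uses no measured value although earlier results of these data were known, and all 42 were found among the 26506 genes of the deposited tables. Nuclear receptors are transcription factors whose shared architecture joins a zinc-finger DNA-binding domain to a ligand-binding domain. Steroid receptors are held by chaperones until hormone arrives, some of them in the cytosol. Many other receptors bind DNA as heterodimers with a retinoid X receptor (RXR). Orphan receptors act without a known physiological ligand or were named before one was found. In surface epithelia, glucocorticoid, retinoid, vitamin D and PPAR signalling are known to act on differentiation, lipid metabolism and inflammation.

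The RNA came from human corneal epithelial cells, the established line ATCC CRL-11515, kept for 72 hours in either of 2 media. The special medium was DMEM/F12 with 1 mM calcium chloride, 10% fetal bovine serum, EGF at 10 ng/mL and antibiotic/antimycotic, and the other was keratinocyte serum-free medium (KSFM). All the cells are 1 cell line, and RNA of 3 cultures per medium was pooled before sequencing, so each medium has 1 library. No replicate check, test or p-value is possible, and a difference between the libraries cannot be told apart from a difference between the pooled cultures. The media differ in more than 1 component, and which component goes with a difference cannot be told apart.

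The special medium library held 16900472 counts and the KSFM library 21604652. CPM is the count scaled to the TMM-adjusted library size, and TPM, as the authors deposited it, also adjusts for transcript length. The 13 corneal and stratified epithelial markers summed to 1242 CPM in the special medium and 931 CPM in KSFM. Of these 8 reached 1 CPM. CDH1 and EPCAM, named after their values were seen, were abundant in both libraries. Of the 8, 3 were called higher and 0 lower, against 9.86% and 6.77% of all genes at 1 CPM. Their median log2 ratio was 0.41, with a range from −0.60 to 3.30. The counting interval, described below, lay wholly above equality for 4 of the 8 and wholly below for 2. The 5 markers below 1 CPM had at most 14 counts in the special medium and 5 in KSFM. The cornea-specific keratins were near absent, with KRT12 at 0 counts in both and KRT3 at 1 count in the special medium and 0 in KSFM. The summed CPM of 8 fibroblast markers was 9.22 in the special medium and 8.20 in KSFM, that of 7 immune markers 64.4 and 59.9 CPM in the same order, that of 5 melanocyte markers 27.8 and 23.4 CPM, and that of 6 endothelial markers 20.2 and 2.97 CPM. Of 3 immune markers at 1 CPM, 1 was called higher and 1 lower, with log2 ratios from −1.77 to 5.31. The 2 endothelial markers at 1 CPM were called higher, at log2 ratios of 1.23 and 6.65. Among fibroblast and melanocyte markers 0 were called. A marker that reached 1 CPM in 1 library alone could be called only in that library's direction.

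Calls of higher or lower asked for 1 CPM or more in the special medium or in KSFM, a 2-fold or larger ratio, and an exact 95% interval clear of equality. Intervals, given in parentheses after a fold, cover counting error only, since each medium has 1 library. PCR copies of a molecule cannot be recognised here, so the intervals may be too narrow even for that error. Of the 42 receptor genes, 25 reached 1 CPM: 21 in both libraries, 2 (NR4A2 and NR5A2) in the special medium alone and 2 (ESR2 and NR2E3) in KSFM alone. Of these 25, 6 were called higher in the special medium (24%), against 9.86% of the 13632 genes at 1 CPM. In pooled bulk RNA, fewer cells with a transcript and less of it per cell cannot be told apart. The higher receptors were NR5A2, NR2F1, NR4A2, NR2F2, THRB and RXRA. NR2E3 alone was called lower, which is 4% of the 25, against 6.77% of all genes. The median log2 ratio of the 25 was 0.45, against 0.00 over all genes at 1 CPM. For 15 of the 25 the interval lay wholly above equality whatever the size (60%, against 37.2% of all genes), and for 3 wholly below (12%, against 36.7%). The 25 are the detected part of the list, and the 4 genes that reached 1 CPM in 1 library alone could be called only in that library's direction.

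Promoter sequences are shown for a receptor of each kind that the results turn on. NR2F1 had the largest ratio among receptors at 1 CPM in both media, RXRA is the shared dimer partner, and PPARG had the highest TPM of the receptors in the special medium. Each is the 250 bases before a RefSeq start on the plus strand of GRCh38.p14, from the RefSeq promoter table, at the first listed start whose window touches no annotated exon. The windows lie at chr5:93582972-93583221 for NR2F1, chr9:134326205-134326454 for RXRA and chr3:12287118-12287367 for PPARG. NR2F1 and RXRA each have 2 listed starts and PPARG has 6, and the RXRA window lies inside the bounds of its gene. Which start these cells use was not measured. Capitals mark a CArG box, the site form bound by serum response factor, in NR2F1, GGGCGG, the GC box form, in RXRA, and AGGTCA, the half-site that many nuclear receptors bind, in PPARG.
NR2F1: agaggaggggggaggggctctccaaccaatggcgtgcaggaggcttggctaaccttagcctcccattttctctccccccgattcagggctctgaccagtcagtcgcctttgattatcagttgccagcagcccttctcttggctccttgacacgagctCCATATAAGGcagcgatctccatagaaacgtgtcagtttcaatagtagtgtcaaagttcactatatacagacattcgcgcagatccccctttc
RXRA: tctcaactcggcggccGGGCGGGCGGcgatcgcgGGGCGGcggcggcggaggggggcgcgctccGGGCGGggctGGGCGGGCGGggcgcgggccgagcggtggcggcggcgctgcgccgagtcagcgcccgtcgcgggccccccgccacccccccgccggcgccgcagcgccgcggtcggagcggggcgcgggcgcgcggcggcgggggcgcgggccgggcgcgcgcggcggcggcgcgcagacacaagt
PPARG: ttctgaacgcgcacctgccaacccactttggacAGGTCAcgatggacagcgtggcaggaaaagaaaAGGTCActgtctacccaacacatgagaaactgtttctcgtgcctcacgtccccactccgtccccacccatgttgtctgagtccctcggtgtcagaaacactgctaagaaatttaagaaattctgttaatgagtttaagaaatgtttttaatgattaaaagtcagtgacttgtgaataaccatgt

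The half-site AGGTCA, the GC box form GGGCGG, the E-box CACGTG and the CArG box were each searched on both strands. The table held 89 windows for 37 of the receptor genes, several genes having more than 1 start, and none for HNF4G, NR0B2, NR2F6, NR4A2 and VDR. The CArG box stood in 1 of the 89 receptor windows (1.12%), the NR2F1 window shown, and in 1.16% of 35116 windows of all genes. Its first base lies 93 bases before the start. AGGTCA stood in 15.7% of receptor windows and 12.1% of all windows, with 2 matches in the PPARG window. GGGCGG stood in 44.9% and 42.6%, with 6 matches in the RXRA window, which is 89.2% G and C. CACGTG stood in 5.62% and 6.34%. A match is a run of letters only, and no binding was measured.

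Among steroid receptors, the glucocorticoid receptor gene NR3C1 had 2187 counts in the special medium and 1516 in KSFM, at 129 and 70.3 CPM in the same order. The ratio of 1.84-fold (1.72 to 1.97) lay below 2-fold, so NR3C1 was not called. Its TPM was 41.7 in the special medium and 20.2 in KSFM, and it passed 2-fold on TPM with a pseudocount of 1 or 0.1. ESR2, estrogen receptor beta, had 13 counts in the special medium and 25 in KSFM, at 0.768 and 1.16 CPM, a ratio of 0.66 (0.31 to 1.35) that was not distinguishable from equality at this depth. ESR2 overlaps the abundant gene SYNE2 on the opposite strand, and on TPM its ratio was higher than on counts by 0.26 on the log2 scale, after the shift common to all genes, against a middle 95% of −0.11 to 0.10 over all genes at 1 CPM. The estrogen receptor alpha gene ESR1 had 3 counts in the special medium and 1 in KSFM, the mineralocorticoid receptor gene NR3C2 had 4 and 5, and the progesterone receptor gene PGR had 0 in both. A count of 0 allows up to 0.177 CPM in the special medium and 0.139 CPM in KSFM, taking 3 counts as the limit.

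The estrogen-related receptors, orphan regulators of mitochondrial energy genes, were represented by ESRRA. It had 685 counts in the special medium and 1123 in KSFM, at 40.5 and 52.0 CPM, a ratio of 0.78 (0.71 to 0.86). ESRRA was thus lower by less than 2-fold and was not called. TRMT112, which overlaps it on the opposite strand, had 1521 counts in the special medium and 3914 in KSFM and was called lower. ESRRB had 1 count in the special medium and 3 in KSFM, and ESRRG had 1 in each.

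The RXR genes encode the common partners of many receptors. RXRA had 1634 counts in the special medium and 997 in KSFM, at 96.6 and 46.2 CPM, and was called higher at 2.09-fold (1.93 to 2.26), a call lost when a trend on effective transcript length was removed or when the interval had to clear 2-fold. RXRB had 911 counts in the special medium and 1046 in KSFM, at 53.8 and 48.5 CPM, a ratio of 1.11 (1.02 to 1.22). RXRG had 1 count in the special medium and 0 in KSFM. On TPM, RXRA made up 46.2% of the summed RXR level in the special medium and 31.4% in KSFM, and RXRB was the larger part in both. The RXRB entry joins several Ensembl gene identifiers. How reads shared among them were counted is not known, which bears on the RXRB level. RXRA (ENSG00000186350) spans chromosome 9 from 134317098 to 134440585 on GRCh38 in GENCODE release 29, the source of the gene bounds that follow.

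The PPARs, receptors for fatty acids and their derivatives, were each detected and differed in their ratios. PPARG, the regulator of lipid storage genes, had 820 counts in the special medium and 549 in KSFM, at 48.5 and 25.4 CPM, a ratio of 1.90-fold (1.71 to 2.13). PPARD had 978 counts in the special medium and 915 in KSFM, at 57.8 and 42.4 CPM, a ratio of 1.36-fold (1.24 to 1.49). PPARA had 451 and 584 counts in the same order, at 26.7 and 27.1 CPM, a ratio of 0.985 (0.869 to 1.12). None of the 3 passed 2-fold on counts, although PPARG did on TPM with a pseudocount of 1 or 0.1 and the PPARG interval overlaps that of RXRA, which did. On TPM, PPARG made up 59.2% of the summed PPAR level in the special medium and 49.0% in KSFM, PPARD 35.0% and 41.6%, and PPARA 5.82% and 9.38%.

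The liver X receptors (LXRs) sense oxysterols. NR1H3, LXR alpha, had 255 counts in the special medium and 231 in KSFM, at 15.1 and 10.7 CPM, a ratio of 1.41-fold (1.17 to 1.69), and NR1H2, LXR beta, had 536 and 731 counts, at 31.7 and 33.9 CPM, a ratio of 0.94 (0.83 to 1.05). NR1H2 was the larger part of the LXR level on TPM in both media, at 64.4% in the special medium and 73.1% in KSFM. The vitamin D receptor gene VDR had 1149 counts in the special medium and 860 in KSFM, at 67.9 and 39.9 CPM, a ratio of 1.70-fold (1.56 to 1.86) that was not called.

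The thyroid hormone receptor genes differed from each other. THRB had 332 counts in the special medium and 196 in KSFM, at 19.6 and 9.08 CPM, and was called higher at 2.16-fold (1.81 to 2.59), a call lost on TPM with a pseudocount of 1, centred or not, and when the interval had to clear 2-fold. THRA had 190 counts in the special medium and 217 in KSFM, at 11.2 and 10.1 CPM, a ratio of 1.12 (0.91 to 1.36). THRA was still the larger part of their summed TPM, at 64.5% in the special medium and 77.5% in KSFM. THRA overlaps NR1D1 and MED24 on the opposite strand, and NR1D1 had 248 counts in the special medium and 68 in KSFM. The strand setting of the counting is not given in the sources used here. Whether reads on bases that THRA shares with its opposite-strand neighbours were kept apart is therefore not known. By whole gene bounds, introns included, 16 of the 25 receptor genes overlap a gene on the other strand. Overlap of exons was not examined. THRB (ENSG00000151090) spans chromosome 3 from 24117153 to 24495756.

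The other RXR partners in the list were at or near 0. The retinoic acid receptor beta gene RARB, itself a classic retinoic acid target, had 1 count in the special medium and 2 in KSFM. The bile acid receptor gene NR1H4 and the xenobiotic receptor gene NR1I3 had 0 in both, and NR1I2, the pregnane X receptor gene, had 0 in the special medium and 2 in KSFM.

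In the COUP-TF group, which has only 3 genes, 2 were called higher, against 9.86% of all genes at 1 CPM. These orphan receptors are regulators of cell fate and commonly repress transcription at sites other receptors use. NR2F1, COUP-TFI, had 145 counts in the special medium and 31 in KSFM, at 8.57 and 1.44 CPM, and was called higher at 5.97-fold (4.03 to 9.10). NR2F2, COUP-TFII, had 1083 counts in the special medium and 413 in KSFM, at 64.0 and 19.1 CPM, and was called higher at 3.34-fold (2.98 to 3.75). The third member, NR2F6, had 539 counts in the special medium and 646 in KSFM, at 31.9 and 29.9 CPM, a ratio of 1.06 (0.95 to 1.19). Together the 3 genes changed in makeup on TPM: NR2F2 made up 40.4% of their sum in the special medium and 19.1% in KSFM, NR2F1 6.63% and 1.79%, and NR2F6 53.0% and 79.2%.

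NR2F1 (ENSG00000175745) spans chromosome 5 from 93583224 to 93594615 and NR2F2 (ENSG00000185551) chromosome 15 from 96325938 to 96340263. Each overlaps a noncoding antisense gene. NR2F1-AS1 had 89 counts in the special medium and 104 in KSFM, a ratio of 1.09 (0.81 to 1.46), and NR2F2-AS1 had 16 counts in each library. The ratios of the antisense genes were thus smaller than those of the receptors beside them.

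The testicular receptors NR2C1 (TR2) and NR2C2 (TR4) are a pair of orphan receptors that bind DNA as dimers with each other. NR2C1 had 1037 counts in the special medium and 797 in KSFM, at 61.3 and 36.9 CPM, a ratio of 1.66-fold (1.51 to 1.82), and NR2C2 had 1111 and 1394, at 65.7 and 64.6 CPM, a ratio of 1.02 (0.94 to 1.10). NR2C1 made up 73.9% of their summed TPM in the special medium and 62.1% in KSFM.

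The NR4A receptors are ligand-independent factors of the immediate early response. NR4A2, NURR1, had 62 counts in the special medium and 19 in KSFM, at 3.66 and 0.88 CPM, and was called higher at 4.16-fold (2.46 to 7.37), a call lost on centred TPM. NR4A1, NUR77, was more abundant, with 790 counts in the special medium and 621 in KSFM, at 46.7 and 28.8 CPM, and had a ratio of 1.62-fold (1.46 to 1.81) that was not called. NR4A3, NOR1, had 4 counts in the special medium and 8 in KSFM. NR4A2 (ENSG00000153234) spans chromosome 2 from 156324432 to 156342348.

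Of 11 other orphan and atypical receptors, 5 reached 1 CPM. NR5A2, liver receptor homolog 1, which regulates bile acid and steroid genes, had 89 counts in the special medium and 19 in KSFM, at 5.26 and 0.88 CPM, and was called higher at 5.97-fold (3.61 to 10.4). NR2E3, a photoreceptor-specific factor of the retina, had 4 counts in the special medium and 35 in KSFM, at 0.24 and 1.62 CPM, and was 6.86-fold lower (2.45 to 26.6) in the special medium. RORA, a receptor of the circadian clock, had 26 counts in the special medium and 62 in KSFM, at 1.54 and 2.87 CPM, and lay 1.87-fold lower (1.17 to 3.08), short of the 2-fold rule. HNF4G had 83 and 119 counts in the same order, at 4.91 and 5.51 CPM, a ratio of 0.89 (0.66 to 1.19), and NR6A1, germ cell nuclear factor, had 137 and 135, at 8.1 and 6.26 CPM, a ratio of 1.29 (1.01 to 1.65). NR5A2 (ENSG00000116833) spans chromosome 1 from 200027602 to 200177424 and NR2E3 (ENSG00000278570) chromosome 15 from 71792638 to 71818259.

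HNF4A had 9 counts in the special medium and 5 in KSFM, RORB 2 and 0, NR5A1 0 and 1, and NR0B2 0 and 4 in the same order, while NR0B1 and NR2E1 had 0 in both. Across the 17 receptor genes below 1 CPM the highest count was 9 in the special medium and 8 in KSFM, so differences among them were not detectable at this depth. NR5A2 and HNF4A are known from liver, and 6 liver markers had a summed level of 73.3 CPM in the special medium and 29.2 CPM in KSFM. Of these, 5 reached 1 CPM and 4 were called higher, against 9.86% of all genes at 1 CPM. ALB had 222 counts in the special medium and 18 in KSFM. HP had 315 and 0 in the same order, APOA1 110 and 0, and TTR 42 and 0. These 4 reached 1 CPM in the special medium alone, so they could be called only higher. The fifth marker was not called, at a log2 ratio of 0.20. The part of the liver marker transcripts in the NR5A2 result was not tested.

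**Figure D1:**
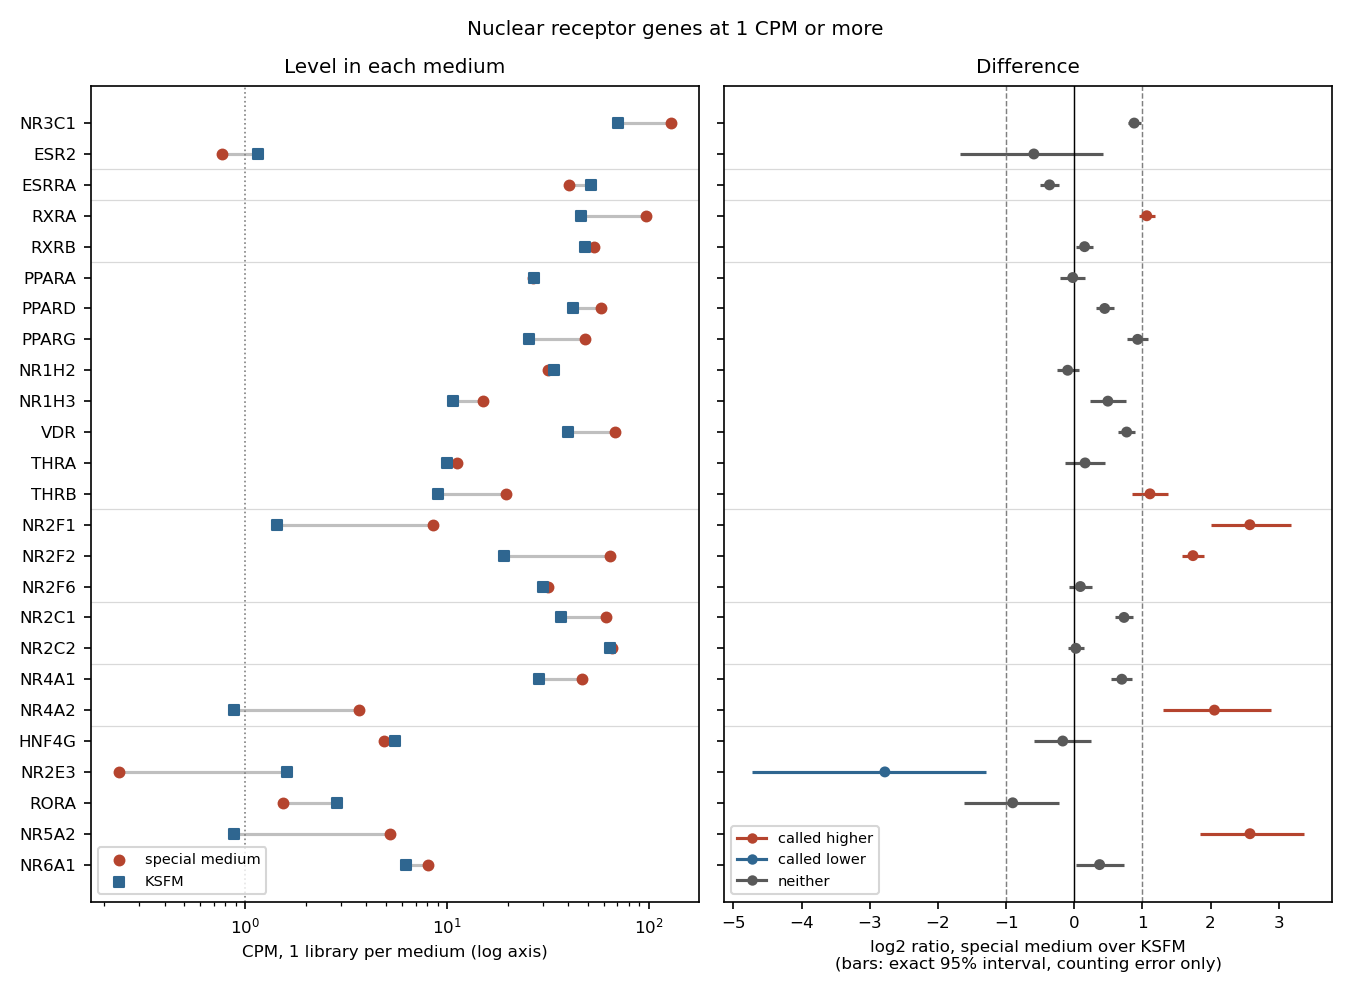
Left, CPM on a log axis of the 25 receptor genes at 1 CPM or more, circles for the special medium and squares for KSFM, 1 library each; right, log2 ratios, special medium over KSFM, with exact 95% intervals for counting error, dashed lines at 2-fold. NR2F1, NR2F2, NR4A2, NR5A2, RXRA and THRB lie right of the upper line and NR2E3 left of the lower one, with wide intervals for the genes below 10 CPM.

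Levels were compared between receptors on TPM only. In the special medium PPARG stood first at 55.98 TPM (counting interval 52.2 to 59.9), and its interval did not overlap that of the next gene, NR2C1, at 45.5 (42.8 to 48.4). NR2C1, RXRB at 42.3 (39.6 to 45.1) and NR3C1 at 41.7 (39.97 to 43.5) followed with overlapping intervals, as did NR2F6, ESRRA, NR4A1 and RXRA, between 38.9 and 36.4 TPM. In KSFM ESRRA stood first at 43.9 TPM (41.4 to 46.6), apart from RXRB at 34.1 (32.1 to 36.3), which overlapped NR2F6 at 32.2 and NR1H2 at 31.2. PPARG was the fifth in KSFM, at 26.2 TPM (24.1 to 28.5), and ESRRA the sixth in the special medium, at 38.5 (35.7 to 41.5). Summed over the 42 genes, receptor TPM was 535 in the special medium and 343 in KSFM. The TPM scale lies above the count scale by a median of 0.17 in log2 ratio over all genes, so these sums are to be read against that shift.

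**Figure D2:**
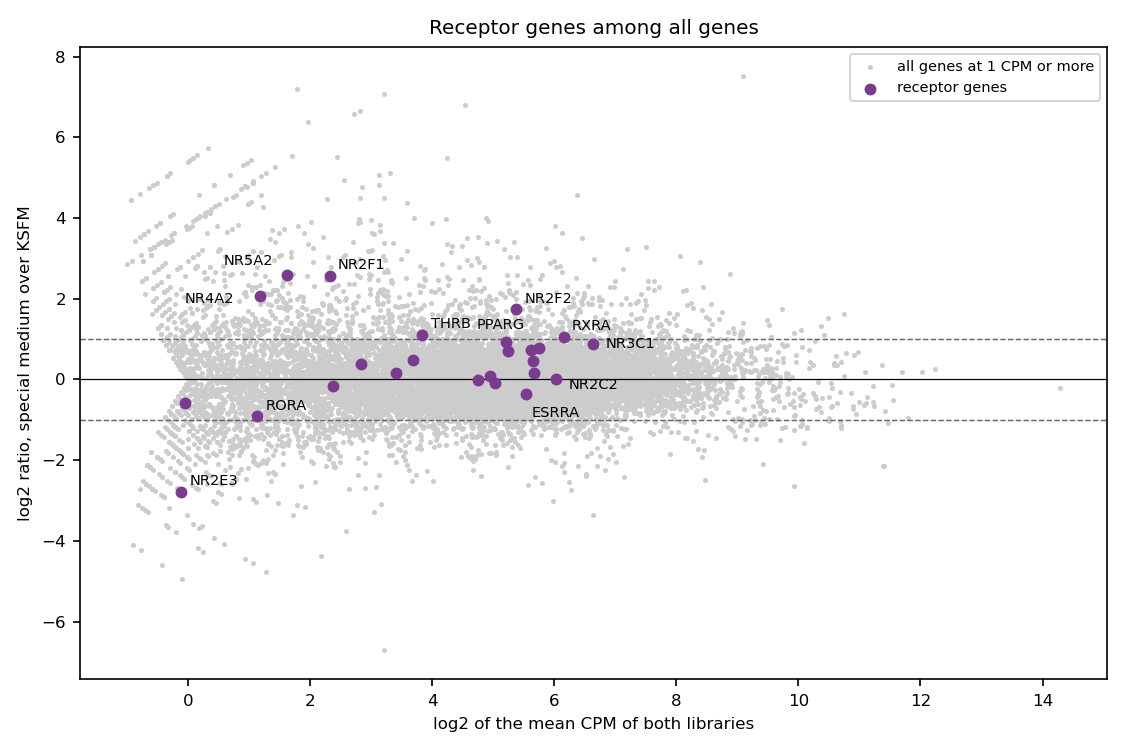
Log2 ratios, special medium over KSFM, against the log2 of the mean CPM of both libraries, grey for all 13632 genes at 1 CPM or more and purple for the 25 receptor genes, dashed lines at 2-fold. Most receptors lie above 0, and those furthest from 0 (NR5A2, NR2F1, NR4A2, NR2E3) have low mean levels, apart from NR2F2.

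Related receptors were also set against each other within the 2 libraries, in 11 pairs chosen after the values were seen. The ratio of a pair's counts in the special medium, divided by the same ratio in KSFM, does not depend on how the libraries are scaled. RXRA against RXRB was 1.88 times as high in the special medium (1.67 to 2.12), THRB against THRA 1.93 times (1.47 to 2.54), and NR1H3 against NR1H2 1.51 times (1.21 to 1.87). PPARG against PPARA was 1.93 times as high (1.64 to 2.29) and PPARG against PPARD 1.40 times (1.21 to 1.61). The 2 pairs set against NR2F6 had the highest values of the 11: NR2F2 against NR2F6 was 3.14 times as high (2.67 to 3.70) and NR2F1 against NR2F6 5.60 times (3.71 to 8.69). NR2F1 against NR2F2 was 1.78 times as high (1.18 to 2.77), NR4A2 against NR4A1 2.56 times (1.49 to 4.59), NR2C1 against NR2C2 1.63 times (1.44 to 1.85) and PPARD against PPARA 1.38 times (1.18 to 1.62). Each interval covers counting error only, and members of each pair were measured in the same libraries.

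**Figure D3:**
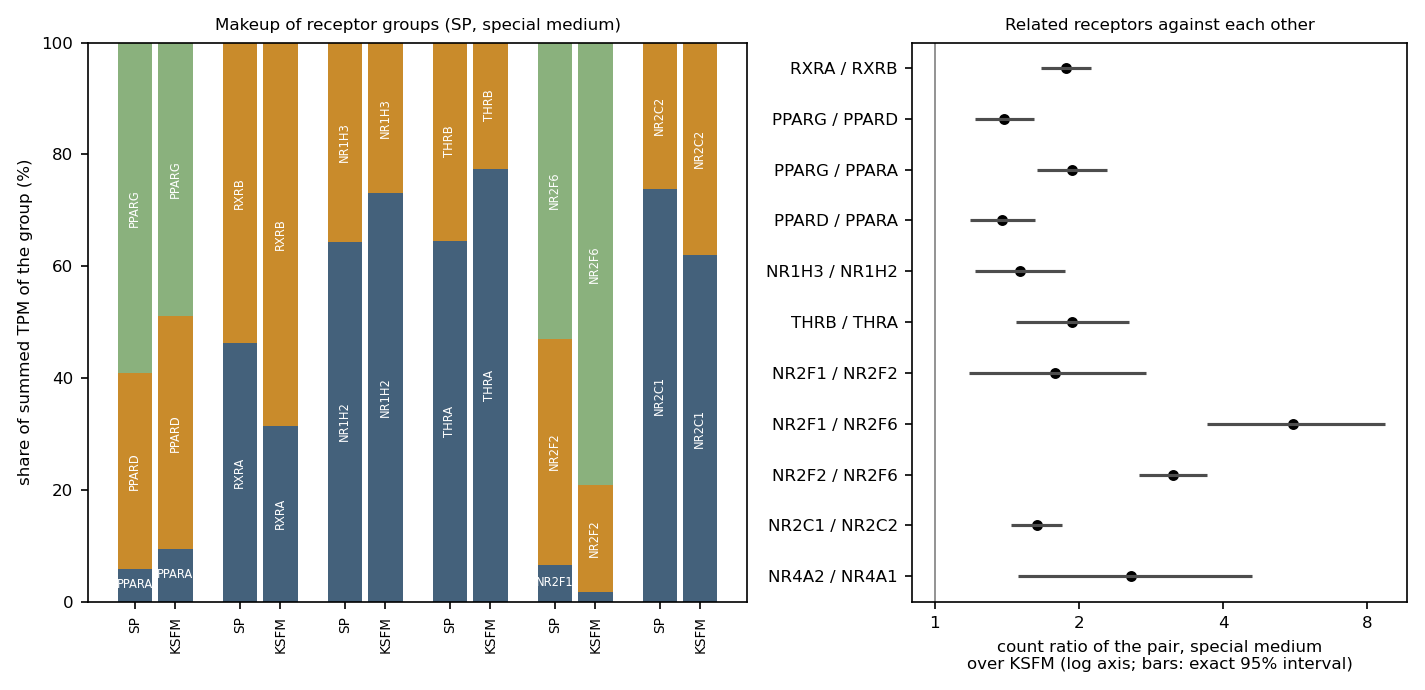
Left, share of the summed TPM of 6 receptor groups held by each member, in percent, special medium (SP) beside KSFM; the unlabelled lowest segment of the KSFM COUP-TF bar is NR2F1 at 1.79%. Right, the count ratio of each of 11 pairs in the special medium over that in KSFM, on a log axis with exact 95% intervals for counting error; all points lie above 1, from 1.38 for PPARD against PPARA to 5.60 for NR2F1 against NR2F6, each pair being ordered with the gene of the higher ratio first.

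Genes around the receptors were read as 15 lists of targets, cofactors and ligand handling genes, holding 179 different genes. Of these, 129 reached 1 CPM, and of the 129, 33 were called higher and 9 lower, against 9.86% and 6.77% of all genes at 1 CPM. The share called lower was thus close to that of all genes, and the share called higher was above it. Some genes stand in more than 1 list, and the lists were chosen with earlier results of these data known. A list's median log2 ratio is over its members at 1 CPM, where that of all genes was 0.00. A gene that reached 1 CPM in 1 library alone could be called only in that library's direction, which bears on list counts and medians. Among the genes named below, CD14, CYP24A1, DIO2, TTR, DHRS9, STS, SULT1E1, RARRES1, AKR1C3 and NR4A2 reached it in the special medium alone. CRABP1 and HSD11B2 reached it in KSFM alone. Calls lost under another scaling, on TPM, with the effective-length trend removed or when the interval had to clear 2-fold are given for the genes named, and a 4-fold threshold or a 10 CPM filter removes others. On TPM a call used no interval.

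Of 9 measured glucocorticoid and mineralocorticoid targets, 3 were called lower and 1 higher, with a median of −0.37. FKBP5, the immunophilin gene that steroid hormone induces and that feeds back on the receptor, had 990 counts in the special medium and 3618 in KSFM and was 2.87-fold lower (2.67 to 3.08). PER1, a clock gene, was 2.26-fold lower (2.01 to 2.53), and the kinase gene SGK1 2.09-fold lower (1.83 to 2.40). SCNN1A, a subunit gene of the epithelial sodium channel, was 2.34-fold higher (2.22 to 2.48). The SGK1 call was lost on TPM under each of the 3 settings and when the interval had to clear 2-fold, and the PER1 call on TPM with a pseudocount of 1.

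Of 7 measured retinoic acid targets, 5 were called higher and 0 lower, with a median of 1.53. CRABP2, which carries retinoic acid to its receptor, had 622 counts in the special medium and 275 in KSFM, 2.88-fold higher (2.50 to 3.34). The transglutaminase gene TGM2 and the retinaldehyde reductase gene DHRS3 had log2 ratios of 3.06 and 2.98, and RARRES1 rested on 20 counts in the special medium and 7 in KSFM, a call lost on TPM with a pseudocount of 1, centred or not, and when the interval had to clear 2-fold. The retinoic acid-degrading enzyme gene CYP26B1, another classic target, had 168 counts in the special medium and 277 in KSFM, a log2 ratio of −0.37, and CYP26A1 had 1 and 0; these 2 were named after their values were seen. In the list of retinoid and fatty acid ligand handling, 6 of 12 were called higher and 1 lower, with a median of 0.96. DHRS9, a retinol dehydrogenase gene, had 34 counts in the special medium and 1 in KSFM, so its ratio of 43.4 (7.27 to 1762) is poorly bounded. PTGS2, the inducible cyclooxygenase gene, was 3.54-fold higher (2.83 to 4.46). CRABP1 was the gene called lower, on 5 counts in the special medium and 26 in KSFM, a call lost when the interval had to clear 2-fold, and DHRS3 is counted here too.

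Of 6 measured vitamin D receptor targets, 3 were called higher and 0 lower, with a median of 0.84. CYP24A1, the vitamin D-degrading enzyme gene that is the best known target of VDR, had 117 counts in the special medium and 12 in KSFM, 12.4-fold higher (6.86 to 24.8). SERPINB1 was 2.34-fold higher (2.18 to 2.50). CD14, which is also an immune cell marker, had 62 counts in the special medium and 2 in KSFM. The leukocyte marker PTPRC, named after its values were seen, had 0 counts in the special medium and 1 in KSFM.

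Of 8 measured LXR targets, 3 were called higher and 0 lower, with a median of 0.87. The cholesterol exporter gene ABCG1 was 2.14-fold higher (1.67 to 2.75), LPCAT3, a phospholipid remodelling enzyme gene, 2.09-fold (1.88 to 2.34) and the apolipoprotein gene APOE 2.09-fold (1.51 to 2.90). All 3 calls were lost when the interval had to clear 2-fold, and those of ABCG1 and APOE also on centred TPM. SCD, the fatty acid desaturase gene, went the other way with a log2 ratio of −0.70 and was not called; it was named after its value was seen.

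Of 12 listed PPAR targets, 5 reached 1 CPM, 0 were called higher and 1 lower, with a median of −0.11. HILPDA, a lipid droplet gene that hypoxia also induces, had 257 counts in the special medium and 682 in KSFM and was 2.08-fold lower (1.80 to 2.41). Its call was lost on TPM under each of the 3 settings, with the effective-length trend removed and when the interval had to clear 2-fold, which leaves 0 PPAR targets lower. Among other listed targets, named after their values were seen, PDK4 had 5 counts in the special medium and 2 in KSFM, ANGPTL4 2 and 0, and FABP4 0 in both. Of 6 adipocyte markers, ADIPOQ and LEP were also at 0 in both, and their summed CPM was 3.96 in the special medium and 4.03 in KSFM.

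Of 4 measured thyroid hormone receptor targets 2 were called higher, with a median of 0.37. BCL3 had 345 counts in the special medium and 131 in KSFM, 3.36-fold higher (2.74 to 4.14). HR, a corepressor gene of thyroid and vitamin D receptors, lay on the threshold itself (interval 1.78 to 2.25) and lost its call under DESeq2 size factors, upper-quartile scaling, centred TPM, removal of the effective-length trend and the demand that the interval clear 2-fold. Of 7 measured estrogen and progesterone receptor targets, 2 were called higher and 1 lower, with a median of 0.23: FOXA1, a pioneer factor gene, was 3.28-fold higher (2.81 to 3.85), GATA3 2.08-fold higher (1.76 to 2.47), and GREB1, an estrogen-induced gene, 2.32-fold lower (1.70 to 3.22). The GREB1 call was lost on TPM under each of the 3 settings and the GATA3 call on centred TPM and with the effective-length trend removed, and both when the interval had to clear 2-fold. Of 7 measured targets of the estrogen-related receptors and their PGC-1 coactivators 0 were called in either direction, with a median of −0.01; the most abundant were MFN2, with a log2 ratio of −0.11, and CYCS, cytochrome c, with −0.91. Among 9 measured NR4A and cAMP-response genes, NR4A2 was higher and PER1 and CREM lower, CREM by 2.13-fold (1.83 to 2.49), with a median of −0.08. The CREM call was lost on TPM with a pseudocount of 1 or 0.1 and when the interval had to clear 2-fold.

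Of 19 measured coactivators 3 were called higher and 0 lower, with a median of 0.14. NCOA7 had 10069 counts in the special medium and 1709 in KSFM, 7.51-fold higher (7.14 to 7.91). NRIP1, which despite its place in this list acts mainly as a ligand-dependent repressor, was 3.51-fold higher (3.27 to 3.78), and PNRC1 2.17-fold (1.90 to 2.47), a call lost when the interval had to clear 2-fold. Of 13 measured corepressors HR alone was called on counts, with a median of 0.11, and 4 were called higher on TPM with a pseudocount of 1 or 0.1, where KDM1A, TBL1XR1 and TLE1 joined it. Of 13 receptor chaperones and immunophilins, 3 were called higher, HSPA8 (3.63-fold, 3.50 to 3.78), HSP90AA1 (2.54-fold, 2.48 to 2.61) and DNAJB1 (2.26-fold, 2.12 to 2.40), and FKBP5 was the gene called lower, with a median of 0.19.

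Enzymes that make, activate or remove hormones included some of the larger ratios at low counts. Of 13 measured steroid-converting enzymes, 4 were called higher and 1 lower, with a median of 0.46. STS, the steroid sulfatase gene, had 85 counts in the special medium and 13 in KSFM, 8.34-fold higher (4.62 to 16.3). SULT1E1, the estrogen sulfotransferase gene, was 6.80-fold higher (2.81 to 19.9) and AKR1C3 2.15-fold (1.12 to 4.28), although AKR1C3 shares near-identical sequence with its AKR1C neighbours. HSD11B2, which inactivates cortisol, had 6 counts in the special medium and 29 in KSFM and was 3.79-fold lower (1.55 to 11.2), while HSD11B1, which regenerates cortisol and was named after its value was seen, had 151 and 140 counts, a log2 ratio of 0.46. The AKR1C3 and HSD11B2 calls were lost on TPM with a pseudocount of 1, centred or not, and when the interval had to clear 2-fold.

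In the list of vitamin D and thyroid hormone handling, 3 of 8 measured genes were called higher and 1 lower, with a median of 0.19. DIO2, which converts thyroxine to the active hormone, had 66 counts in the special medium and 4 in KSFM, 21.0-fold higher (7.84 to 79.5). TTR, a plasma carrier of thyroid hormone and also one of the liver markers, had 42 counts in the special medium and 0 in KSFM, at least 13.9-fold higher by the lower bound of its exact interval. DHCR7, whose substrate is the precursor of vitamin D, was 2.24-fold lower (2.03 to 2.46), and CYP24A1 is counted here too. The DHCR7 call was lost on TPM with a pseudocount of 1 or 0.1, and the DIO2 call on centred TPM.

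**Figure D4:**
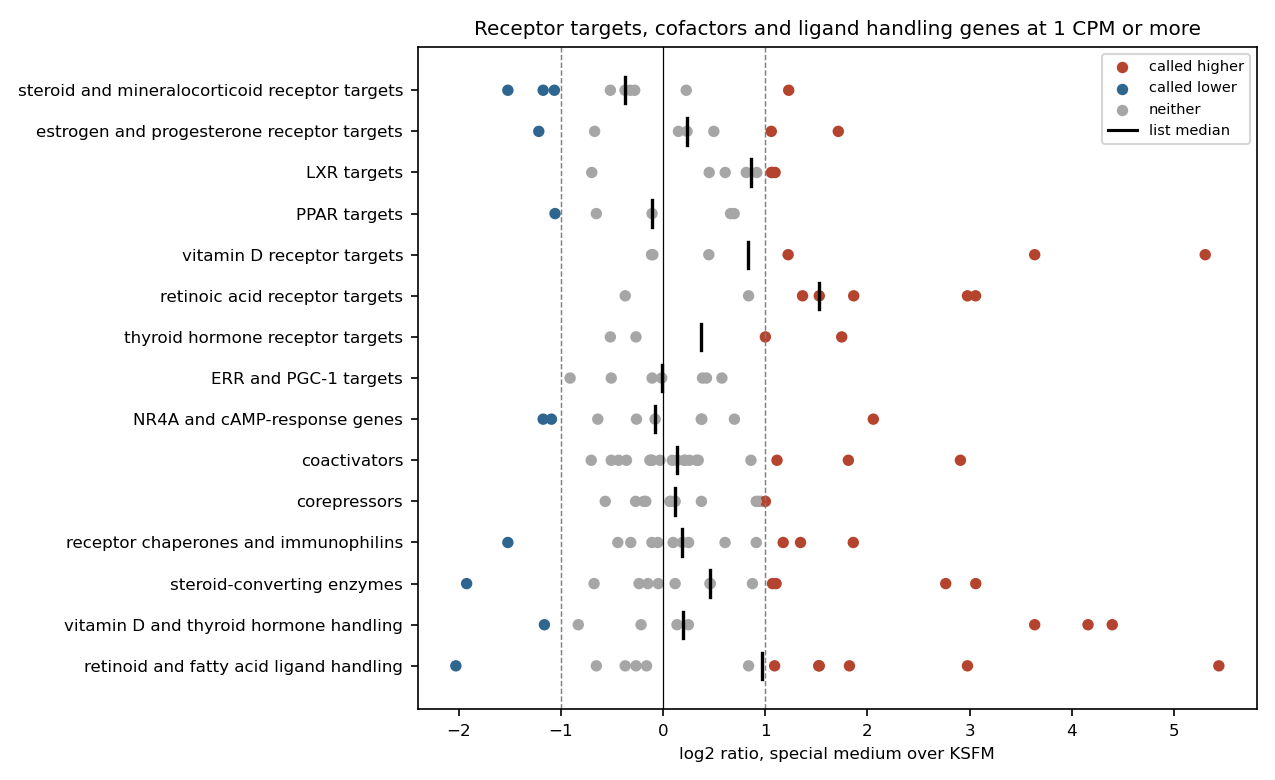
Log2 ratios, special medium over KSFM, of each gene at 1 CPM or more in the 15 lists, red where called higher, blue where called lower and grey where neither, with the list median as a black bar and dashed lines at 2-fold. The retinoic acid list has the highest median (1.53) and the steroid target list the lowest (−0.37).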

How the data were processed

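Per the submitters' processing notes, the authors used FastQC 0.11.9, fastp 0.20.0, HISAT2 2.1.0 and RSEM on GRCh38; the sources used here name neither the annotation nor the strand setting. Per the labels, a stranded poly(A) kit was used. The authors deposited estimated counts for 26506 genes, fractional in 8.05% of genes in the special medium and 11.3% in KSFM, and TPM values per gene. Counts were rounded to whole numbers and scaled with edgeR 4.0.16 TMM factors, 1.00 and 0.999 in the same order. Ratios (special medium over KSFM) carry exact 95% Clopper-Pearson intervals, conditioning on each gene's total of both libraries; for ratios, 0 was replaced by a floor of 3 counts per library. Pair ratios are conditional odds ratios with exact intervals.

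The receptors and lists were chosen with earlier results of these data known. Of 250 list entries 248 were found; PLAAT4 and ATP5F1B were not matched. Genes named in a list are up to 4 called genes with the largest ratios or, where none was called, the 2 most abundant; others named were chosen after their values were seen. Alternatives were scaling by totals, by upper quartiles or by DESeq2 1.42.0, log2 TPM (pseudocount 1, also centred, or 0.1), no filter or 10 CPM, a threshold of 4-fold, intervals required to clear 2-fold, and removal of a cubic trend on effective length (count per TPM). The TPM alternatives kept the 1 CPM filter and the 2-fold threshold but used no interval. Gene bounds came from GENCODE release 29 (GRCh38). R 4.3.3, Python 3.11.15, scipy 1.17.1, pandas 2.3.3 and matplotlib 3.10.9 were used.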

Additional observations from a re-analysis of the deposited data

How the results depend on the processing

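The count of 6 higher and 1 lower receptors was the same under total-count, DESeq2 and upper-quartile scaling and without a filter, and no receptor was called in the opposite direction under any alternative. With a filter of 10 CPM 3 receptors were higher and 0 lower, because NR2F1, NR4A2, NR5A2 and NR2E3 fall below it. By the 4-fold rule 3 were higher, with RXRA, THRB and NR2F2 lost. RXRA and THRB were also lost when the interval had to lie wholly beyond 2-fold (4 higher), RXRA with the effective-length trend removed (5 higher), and THRB on TPM with a pseudocount of 1, where NR3C1 and PPARG gained a call (7 higher). With a pseudocount of 0.1 NR3C1 and PPARG gained a call (8 higher), and with centring THRB and NR4A2 were lost (4 higher). Calls on TPM asked for 1 CPM and a 2-fold ratio only, without an interval. Over all genes, the 1344 higher and 923 lower became 788 and 446 at 10 CPM, 408 and 162 by the 4-fold rule, and 837 and 395 with the interval beyond 2-fold. Lower genes numbered 349 and 605 on TPM with pseudocounts of 1 and 0.1, and 536 with centring. Higher genes made up 59.3% of calls on counts, 78.4% and 73.4% on TPM with pseudocounts of 1 and 0.1, which shift the median log2 ratio by 0.15 and 0.16, and 63.9%, 71.6% and 67.9% at 10 CPM, 4-fold and beyond 2-fold. Of the 30 list counts (higher and lower in 15 lists), the number that moved by more than 1.5 times was 17 with the 4-fold rule, 10 with the interval beyond 2-fold, 9 on centred TPM, 8 and 5 on TPM with pseudocounts of 1 and 0.1, 7 at 10 CPM, 4 with the effective-length trend removed, 2 each under DESeq2 and upper-quartile scaling, 1 without a filter and 0 under total-count scaling. No listed gene was called in the opposite direction under these alternatives. The cause of the lost calls was not tested. Intervals are wide where a library has few counts, as for NR2F1, NR4A2, NR5A2, NR2E3, RORA and ESR2. No paired analysis was possible because each medium has 1 library.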
